A study of Mus musculus with 9 samples.

Results

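The 10 genes described here encode enzymes of cornification, the last step of epidermal differentiation: the transglutaminases Tgm1, Tgm3 and Tgm5, the peptidylarginine deiminases Padi1 and Padi3, the filaggrin-processing proteases Casp14, Asprv1 and Blmh, and the membrane serine proteases St14 and Prss8. They were chosen by symbol for these roles, with earlier results of these data known. Each was found once by its Ensembl gene identifier among the 55401 features of the gene table. All 10 passed the filter on low counts, which left 21925 genes to be tested.

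In the outer layers of the epidermis, keratinocytes die in an ordered way and become corneocytes, each wrapped in a cornified envelope of cross-linked protein. Transglutaminases make these cross-links, between glutamine and lysine side chains of loricrin, involucrin, small proline-rich proteins and filaggrin. Deiminases turn arginine into citrulline in keratins, filaggrin and trichohyalin, which loosens filaggrin from keratin and opens it to proteases. Asprv1 and Casp14 cut profilaggrin and filaggrin, and Blmh breaks the deiminated fragments down to free amino acids that hold water in the stratum corneum. St14 (matriptase) activates Prss8 (prostasin), and loss of either in mice leaves a defective barrier.

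Messenger RNA was sequenced from ears of C57 mice in 9 libraries, 3 in each of 3 groups. Ears of the MC903 with paeonol group came from mice given MC903 and 200 mg/kg of paeonol, a phenol found in peony roots; the MC903 group had MC903, which is calcipotriol, a vitamin D analogue used on mouse skin to model atopic dermatitis; the control group had absolute ethyl alcohol. No group had paeonol alone, and neither a vehicle for paeonol nor the route, timing, age and sex are stated in the labels. Whether each library is a separate animal is not in the labels, so p-values here reflect the spread among these samples, possibly a technical one.

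The libraries held 54264605 to 57745225 estimated counts each. Levels are CPM, counts scaled to a common library size with TMM factors, and levels of different genes are compared only as CPM per kilobase of exon. Each comparison used edgeR's quasi-likelihood F test on all 9 libraries, two-sided, with p-values adjusted after Benjamini and Hochberg over all 21925 genes and a call below 0.05; changes are log2 changes with their standard errors (SE). The 3 comparisons share groups and are therefore not independent of each other. Keratinocyte RNA was present in all libraries: 9 basal keratinocyte markers, such as Krt5 and Krt14, summed to 19835 to 21174 CPM in MC903 with paeonol libraries, 20875 to 22055 CPM in MC903 libraries and 14244 to 15586 CPM in control libraries. Krt14 carried the higher sum in MC903 ears, with 13643 ± 469.5 CPM in MC903 and 5527 ± 267 CPM in control libraries (SD, n = 3 each). In that comparison 5 of the 9 (Krt5, Col17a1, Dst, Lama3 and Lamb3) were lower and 3 higher, beside 23.8% and 23.0% of all genes tested. In whole ears, fewer cells of a type and less RNA per cell cannot be told apart.

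Promoter sequences were taken from RefSeq (GRCm38.p6), which matched 8 of the 10 genes, all but Prss8 and St14. Each line gives the 250 bases before the RefSeq start, 5′ to 3′ on the strand of the gene. Padi1 and Padi3 are shown because they are neighbours on chromosome 4 that changed in opposite directions, and Asprv1 because it had the highest level per kilobase. Tgm3 and Casp14 are shown because they hold the motif matches, which are in capitals. The Padi1 window is chr4:140845779-140846028 and the Padi3 window chr4:140810649-140810898, both on the minus strand. The Tgm3 window is chr2:130012090-130012339 on the plus strand, the Asprv1 window chr6:86627924-86628173 on the plus strand, and the Casp14 window chr10:78718294-78718543 on the minus strand.
Padi1: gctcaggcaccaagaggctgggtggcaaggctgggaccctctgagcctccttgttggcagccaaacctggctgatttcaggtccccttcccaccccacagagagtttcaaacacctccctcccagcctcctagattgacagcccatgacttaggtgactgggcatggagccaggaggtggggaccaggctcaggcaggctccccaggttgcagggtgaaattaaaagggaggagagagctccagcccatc
Padi3: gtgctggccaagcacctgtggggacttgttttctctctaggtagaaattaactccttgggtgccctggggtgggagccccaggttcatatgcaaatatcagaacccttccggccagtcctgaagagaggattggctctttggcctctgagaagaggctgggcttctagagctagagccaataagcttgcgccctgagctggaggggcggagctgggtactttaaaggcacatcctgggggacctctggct
Tgm3: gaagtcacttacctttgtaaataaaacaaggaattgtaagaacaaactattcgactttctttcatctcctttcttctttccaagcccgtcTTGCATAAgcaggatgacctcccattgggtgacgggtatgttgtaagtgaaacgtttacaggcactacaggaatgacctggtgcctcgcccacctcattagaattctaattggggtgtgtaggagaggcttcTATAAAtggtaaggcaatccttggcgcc
Asprv1: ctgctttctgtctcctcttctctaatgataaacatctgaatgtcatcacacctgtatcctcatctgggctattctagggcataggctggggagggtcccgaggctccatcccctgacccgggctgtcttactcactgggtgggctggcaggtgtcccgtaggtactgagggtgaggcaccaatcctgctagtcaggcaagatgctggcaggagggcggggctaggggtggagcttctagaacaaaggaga
Casp14: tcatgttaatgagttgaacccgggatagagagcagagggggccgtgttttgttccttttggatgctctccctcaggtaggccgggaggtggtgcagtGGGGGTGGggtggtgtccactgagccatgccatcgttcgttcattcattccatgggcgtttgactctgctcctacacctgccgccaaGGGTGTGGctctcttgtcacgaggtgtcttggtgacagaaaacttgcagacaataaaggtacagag

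Both strands of these windows were searched for 6 motifs. The Tgm3 window holds TATAAA, the TATA box, at 28 to 23 bases before the start. Anywhere in the same length, on either strand, 12.4% of the 32851 RefSeq promoters searched hold these letters. The other shares were counted in the same way, and none was computed for a given position. The Tgm3 window also holds TTGCNNAA, the core of the C/EBP motif, at 160 to 153 bases before the start, a motif found in 9.56% of promoters. The Casp14 window has GGGNGTGG, a KLF-type motif present in 15.9% of promoters, at 153 to 146 and at 66 to 59 bases before the start. These matches do not overlap each other. No match to TGANTCA (AP-1, in 6.75% of promoters), AACNGGTT (Grainyhead-like, in 1.79%) or the vitamin D receptor direct repeat (GNTCA and again GNTCA after 4 bases, in 0.548%) lay in the windows of the 8 genes, which says only that these letters are not there. A match is a description of the sequence and not a binding site.

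The libraries of a group were not equal for these genes. MC903 with paeonol library 3 was the highest of its group for 9 of the 10 enzymes, MC903 library 1 for 7 and control library 1 for 6. MC903 with paeonol library 3 also stood farthest out on the second principal component of all genes (15.9% of the variance). Without that library each enzyme kept its call in all 3 comparisons.

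The enzymes did not move as 1 block. In MC903 against control ears, 5 of the 10 were higher, 2 were lower and 3 were not called, beside 46.8% of all genes tested that were called (23.0% higher and 23.8% lower). Again 5 were higher, 2 lower and 3 not called in MC903 with paeonol against MC903 ears, beside 29.7% of all genes called (15.3% higher and 14.3% lower). The comparison of MC903 with paeonol against control ears had 9 higher, none lower and Padi1 not called, beside 30.9% of all genes called (16.3% higher and 14.5% lower). The median log2 change of the 10 was 0.64 in MC903 against control ears, where that of all genes tested was -0.02. It was 0.27 in MC903 with paeonol against MC903 ears, where that of all genes was 0.00, and 1.13 in MC903 with paeonol against control ears, where that of all genes was -0.03. The groups did not overlap for exactly the numbers of enzymes called in each direction. Of all genes tested, 58.1% did not overlap between MC903 and control libraries (28.3% higher and 29.8% lower). The share was 43.9% between MC903 with paeonol and MC903 libraries (21.9% higher and 22.0% lower) and 46.4% between MC903 with paeonol and control libraries (22.8% higher and 23.6% lower).

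Scaling by library totals in place of TMM shifted the median log2 change of all genes in MC903 against control ears to -0.21, and in MC903 with paeonol against control ears to -0.20. The all-gene calls in MC903 against control ears were 5044 higher and 5215 lower with TMM, and 3402 higher and 7224 lower with library totals. Those in MC903 with paeonol against MC903 ears were 3357 higher and 3145 lower with TMM, against 3618 higher and 2807 lower with library totals. Those in MC903 with paeonol against control ears were 3578 higher and 3187 lower with TMM, against 2155 higher and 5354 lower with library totals. The calls of the 10 enzymes were the same under both scalings.

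**Figure D1:**
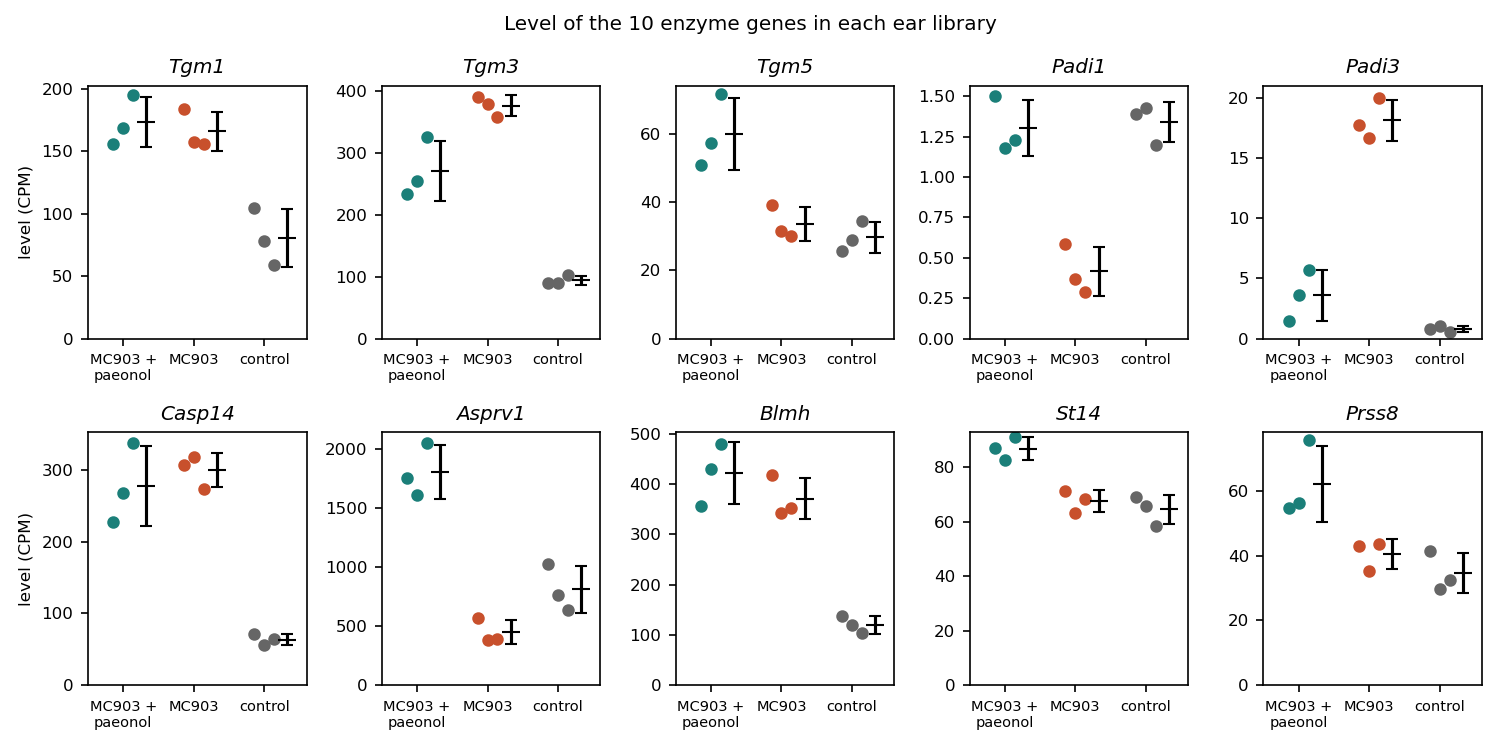
Levels of the 10 enzyme genes in CPM (linear axes from 0, a scale of its own for each gene) in each library of the MC903 with paeonol, MC903 and control groups; points are libraries, and the black bars are the mean and SD of 3 libraries. Padi3 stands at 16.7 to 20.02 CPM in MC903 libraries and at no more than 1.02 CPM in control libraries, while Asprv1 and Padi1 are lowest in MC903 libraries.

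The direction patterns fall into 4 groups. Tgm1, Casp14 and Blmh were higher in MC903 than in control ears and not called between MC903 with paeonol and MC903 ears. Tgm3 and Padi3 were higher in MC903 than in control ears and lower in MC903 with paeonol than in MC903 ears. Tgm5, St14 and Prss8 were not called between MC903 and control ears and were higher in MC903 with paeonol than in MC903 ears. Asprv1 and Padi1 were lower in MC903 than in control ears and higher in MC903 with paeonol than in MC903 ears.

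**Figure D2:**
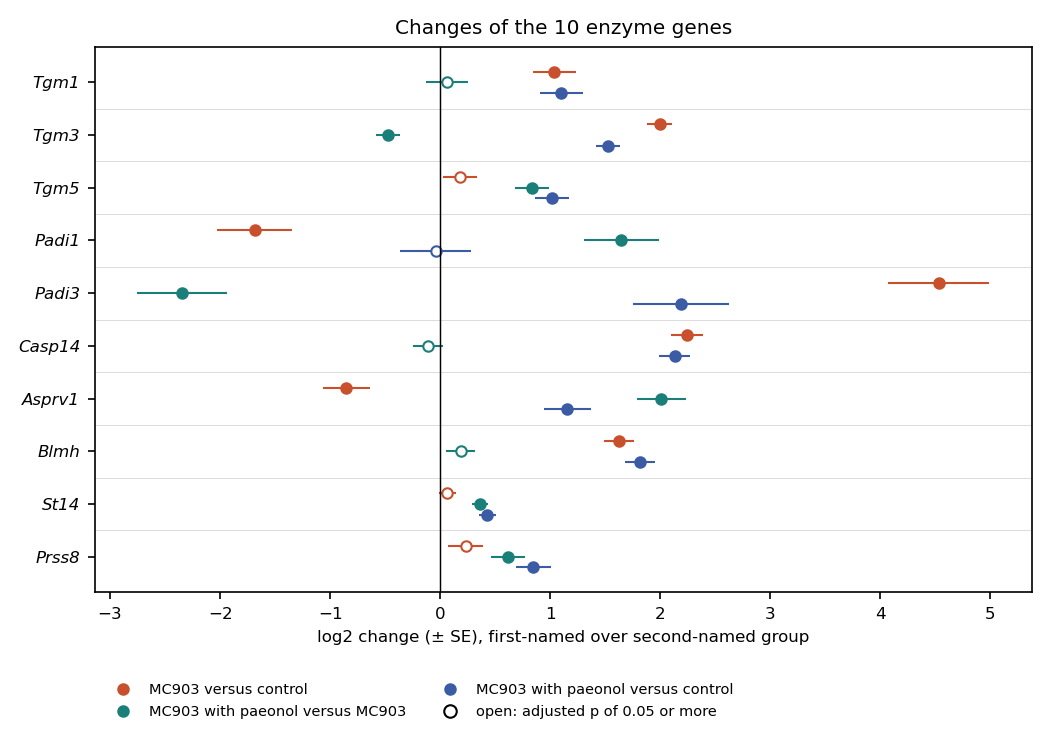
Log2 changes (first-named over second-named group, ± SE) of the 10 enzyme genes in the 3 comparisons; filled points have an edgeR adjusted p under 0.05 and open points do not. Padi3 has the largest change of the 10 in MC903 against control ears, 4.53, and Padi1, Padi3, Asprv1 and Tgm3 have called changes of opposite sign in MC903 against control and in MC903 with paeonol against MC903 ears.

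Tgm1 (chr14:55700009-55713926, minus strand in GRCm38) encodes the membrane-anchored transglutaminase that builds the cornified envelope and is mutated in lamellar ichthyosis. It had 156, 169 and 195 CPM in the MC903 with paeonol libraries, 184, 157 and 156 CPM in the MC903 libraries and 105, 78.4 and 58.9 CPM in the control libraries. The MC903 with paeonol and MC903 libraries overlapped each other, and all of them lay above all control libraries. Tgm1 was 2.05-fold higher in MC903 than in control ears (log2 change 1.04 ± 0.19; edgeR, adjusted p = 0.00240) and 2.15-fold higher in MC903 with paeonol than in control ears (1.10 ± 0.19; edgeR, adjusted p = 0.00337). Between MC903 with paeonol and MC903 ears its log2 change was 0.06 ± 0.19 (edgeR, adjusted p = 0.845), and its sign changed without MC903 with paeonol library 3. An antisense transcript, Gm49067, overlaps 182 exonic bases of Tgm1 and had 1 to 6 counts per library.

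Tgm3 (chr2:130012349-130050399, plus strand) encodes the cytosolic epidermal transglutaminase, a zymogen that proteolysis activates, which also acts in the hair follicle. It had 234, 254 and 326 CPM in the MC903 with paeonol libraries, 391, 379 and 358 CPM in the MC903 libraries and 89.8, 90.1 and 103 CPM in the control libraries. The 3 groups did not overlap: MC903 libraries were highest, control libraries lowest and MC903 with paeonol libraries between them. Tgm3 was 3.99-fold higher in MC903 than in control ears (log2 change 2.00 ± 0.11; edgeR, adjusted p = 4.87e-07). It fell by 0.47 ± 0.11 on the log2 scale in MC903 with paeonol against MC903 ears (edgeR, adjusted p = 0.00755), and it stayed 2.88-fold above control ears (1.53 ± 0.11; edgeR, adjusted p = 1.65e-05).

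Tgm5 (chr2:121046111-121085841, minus strand) encodes the third transglutaminase of the upper epidermis, whose loss in humans causes skin peeling. It had 51.1, 57.6 and 71.9 CPM in the MC903 with paeonol libraries, 39.3, 31.7 and 30.1 CPM in the MC903 libraries and 25.8, 28.9 and 34.6 CPM in the control libraries. MC903 and control libraries overlapped, and every MC903 with paeonol library was above both. Tgm5 was 1.79-fold higher in MC903 with paeonol than in MC903 ears (log2 change 0.84 ± 0.15; edgeR, adjusted p = 0.00226) and 2.02-fold higher than in control ears (1.02 ± 0.15; edgeR, adjusted p = 0.000804). Between MC903 and control ears its log2 change was 0.18 ± 0.15 with TMM (edgeR, adjusted p = 0.373) and -0.01 with library totals.

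The balance of the 3 transglutaminases was measured as the share of each in their sum. Of their summed CPM per kilobase, Tgm3 made up 46.9% ± 1.16 in MC903 with paeonol, 59.1% ± 1.73 in MC903 and 39.7% ± 5.60 in control libraries (SD, n = 3 each). The Tgm3 share of every MC903 library was above that of every library of the other groups. Tgm1 made up 39.5% ± 1.43 in MC903 with paeonol, 34.0% ± 1.23 in MC903 and 43.8% ± 9.21 in control libraries (SD, n = 3 each). Tgm5 made up 13.6% ± 0.345 in MC903 with paeonol, 6.91% ± 0.549 in MC903 and 16.5% ± 3.61 in control libraries (SD, n = 3 each). The Tgm5 share in MC903 libraries lay below that in all libraries of the other groups. An exact two-sided permutation test of 3 against 3 cannot go below p = 0.1. The Tgm3 and Tgm5 shares in MC903 against control ears, all 3 shares in MC903 with paeonol against MC903 ears, and the Tgm3 share in MC903 with paeonol against control ears reached that p (0.133 after adjustment over the 12 share comparisons), so none passed 0.05.

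**Figure D3:**
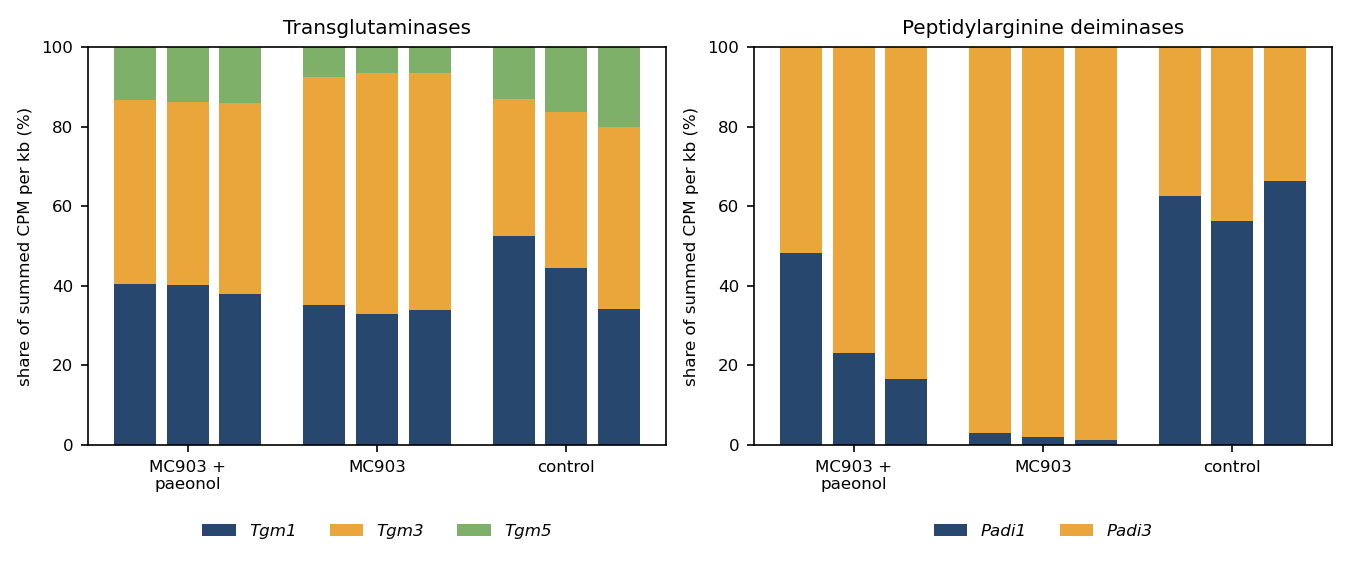
Share (%) of each gene in the summed CPM per kilobase of its family in every library, for Tgm1, Tgm3 and Tgm5 (left) and for Padi1 and Padi3 (right); each bar is 1 library of the MC903 with paeonol, MC903 or control group. In MC903 libraries Tgm3 takes 57.2% to 60.6% of its family, above all other libraries, and Padi1 takes 1.31% to 2.95% of its own, below all other libraries.

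Padi1 and Padi3 lie side by side on the minus strand of chromosome 4, with 2334 bases between them in GENCODE M21, and they changed in opposite directions in MC903 against control ears and in MC903 with paeonol against MC903 ears. Padi3 (chr4:140785365-140810648), the deiminase of the granular layer and the hair follicle, had 1.48, 3.58 and 5.68 CPM in the MC903 with paeonol libraries, 17.7, 16.7 and 20.02 CPM in the MC903 libraries and 0.768, 1.02 and 0.558 CPM in the control libraries. The 3 groups did not overlap, and the MC903 with paeonol libraries lay between the others, library 3 highest and library 1 lowest. Padi3 was 23.1-fold higher in MC903 than in control ears (log2 change 4.53 ± 0.46; edgeR, adjusted p = 4.19e-05). It was 5.07-fold lower in MC903 with paeonol than in MC903 ears (-2.34 ± 0.41; edgeR, adjusted p = 0.00235) and 4.56-fold higher than in control ears (2.19 ± 0.44; edgeR, adjusted p = 0.00489).

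Padi1 (chr4:140812983-140845778), which deiminates keratins and filaggrin in the living and cornified layers, was the least abundant of the 10 per kilobase in MC903 with paeonol and MC903 libraries. It had 1.501, 1.18 and 1.23 CPM in the MC903 with paeonol libraries, 0.587, 0.370 and 0.290 CPM in the MC903 libraries and 1.39, 1.43 and 1.20 CPM in the control libraries, on 85, 64 and 64 counts, 30, 20 and 16 counts, and 87, 87 and 71 counts in the same order. All MC903 libraries lay below all others, and MC903 with paeonol and control libraries overlapped. Padi1 was 3.22-fold lower in MC903 than in control ears (log2 change -1.69 ± 0.34; edgeR, adjusted p = 0.00164) and 3.13-fold higher in MC903 with paeonol than in MC903 ears (1.65 ± 0.34; edgeR, adjusted p = 0.00362). Between MC903 with paeonol and control ears its log2 change was -0.04 ± 0.32 (edgeR, adjusted p = 0.944). A transcript on the opposite strand, Gm13032, overlaps 1200 exonic bases of Padi1 and had 0 to 22 counts per library; the sources used here do not give the strand setting of the counting, so reads of this overlap cannot be told apart.

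Padi1 made up 48.2%, 23.2% and 16.6% of the summed CPM per kilobase of Padi1 and Padi3 in the 3 MC903 with paeonol libraries. Its share was 2.09% ± 0.824 in MC903 and 61.7% ± 5.09 in control libraries (SD, n = 3 each). The 3 groups did not overlap, and all 3 comparisons had the smallest p that the exact permutation test allows, 0.1. Padi1 exceeded Padi3 per kilobase in each control library and in no library of the other groups.

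The other genes of both families, 9 in number, were examined beside these. The shares of all genes called are those given for the enzymes. In MC903 against control ears, Tgm6, F13a1 and Padi4 were higher, Tgm7 and Padi2 were lower, and Tgm2, Tgm4, Epb42 and Padi6 were not called; without control library 2, Tgm2 was called higher (0.78; edgeR, adjusted p = 0.00343). Tgm6 lies 62016 bases from Tgm3 on the same strand, and Padi4 11128 bases from Padi3. Tgm6 had 0.636, 1.42 and 1.48 CPM in the MC903 with paeonol libraries, 7.95, 5.10 and 6.19 CPM in the MC903 libraries and 0.256, 0.0656 and 0.456 CPM in the control libraries. Its levels were low throughout, and the 3 groups did not overlap. Like Tgm3 and Padi3, it was higher in MC903 than in control ears (log2 change 4.62 ± 0.55; edgeR, adjusted p = 5.97e-05; 5.29 without control library 3) and lower in MC903 with paeonol than in MC903 ears (-2.44 ± 0.49; edgeR, adjusted p = 0.00338). Tgm7, 7723 bases from Tgm5 on the same strand, was lower in MC903 than in control ears (-2.23 ± 0.40; edgeR, adjusted p = 0.000729). Its level was low too, at 24, 28 and 25 counts in the MC903 libraries. The control libraries were widely spread, at 215, 129 and 72 counts.

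Padi4, known chiefly from granulocytes, where it citrullinates histones, had 15.8, 21.97 and 54.6 CPM in the MC903 with paeonol libraries, 59.0, 61.5 and 59.2 CPM in the MC903 libraries and 0.880, 0.558 and 0.659 CPM in the control libraries. MC903 with paeonol library 3 lay close to the MC903 libraries, the other libraries of its group lay well below them, and all were above the control libraries. It was 85.3-fold higher in MC903 than in control ears (log2 change 6.41 ± 0.58; edgeR, adjusted p = 0.000100) and 43.8-fold higher in MC903 with paeonol than in control ears (5.45 ± 0.57; edgeR, adjusted p = 0.000556; 4.75 without MC903 with paeonol library 3). Between MC903 with paeonol and MC903 ears its log2 change was -0.96 ± 0.43 (edgeR, adjusted p = 0.146), and without MC903 with paeonol library 3 it was -1.67 (edgeR, adjusted p = 4.04e-05). The 6 neutrophil markers summed to 22.05 to 25.3 CPM in MC903 with paeonol, 30.9 to 37.5 CPM in MC903 and 8.92 to 11.2 CPM in control libraries, but they did not go 1 way between the treated groups. Cxcr2 averaged 18.3 ± 2.48 CPM in MC903 with paeonol and 10.4 ± 1.77 CPM in MC903 libraries (SD, n = 3 each) and was called higher, while Csf3r, at 5.46 ± 1.62 and 20.8 ± 2.04 CPM in the same order (SD, n = 3 each), and Retnlg were called lower. Of these markers, Ly6g and Ngp were at 0 in every MC903 with paeonol library and too low in all groups to be tested. The part of these cells in the Padi4 change was not tested.

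Padi2, the deiminase of muscle, brain and many other tissues, fell by 0.97 ± 0.14 on the log2 scale in MC903 against control ears (edgeR, adjusted p = 0.000158) and by 1.02 ± 0.14 in MC903 with paeonol against control ears (edgeR, adjusted p = 0.000353). The 8 skeletal muscle markers, all lower in both comparisons, summed to 1519 to 2126 CPM in MC903 with paeonol, 1094 to 1465 CPM in MC903 and 3043 to 4764 CPM in control libraries. Of all genes tested, 23.8% were lower in the first of these comparisons and 14.5% in the second. The part of the muscle markers in the Padi2 change was not tested. Lower in MC903 with paeonol than in MC903 ears were Tgm2 (-1.56 ± 0.26; edgeR, adjusted p = 0.00278), Tgm6 and F13a1 (-1.37 ± 0.12; edgeR, adjusted p = 2.54e-05), and none was higher. Tgm2 is the widely expressed tissue transglutaminase, and F13a1 encodes the coagulation factor XIII A chain, made by macrophages among other cells. All 8 macrophage markers were higher in MC903 than in control ears and lower in MC903 with paeonol than in MC903 ears, at 502 to 825 CPM in MC903 with paeonol, 1652 to 1882 CPM in MC903 and 965 to 1027 CPM in control libraries. Of all genes tested, 23.0% were higher in MC903 than in control ears and 14.3% lower in MC903 with paeonol than in MC903 ears. None of the macrophage markers was at 0 in all libraries, and their part in the F13a1 and Tgm2 changes was not tested. Against control ears, MC903 with paeonol ears had Tgm6 and Padi4 higher and Tgm2, Tgm7, F13a1 and Padi2 lower; without MC903 with paeonol library 3 the number lower was 2, and Tgm2 was not called (-1.07; edgeR, adjusted p = 0.0609).

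**Figure D4:**
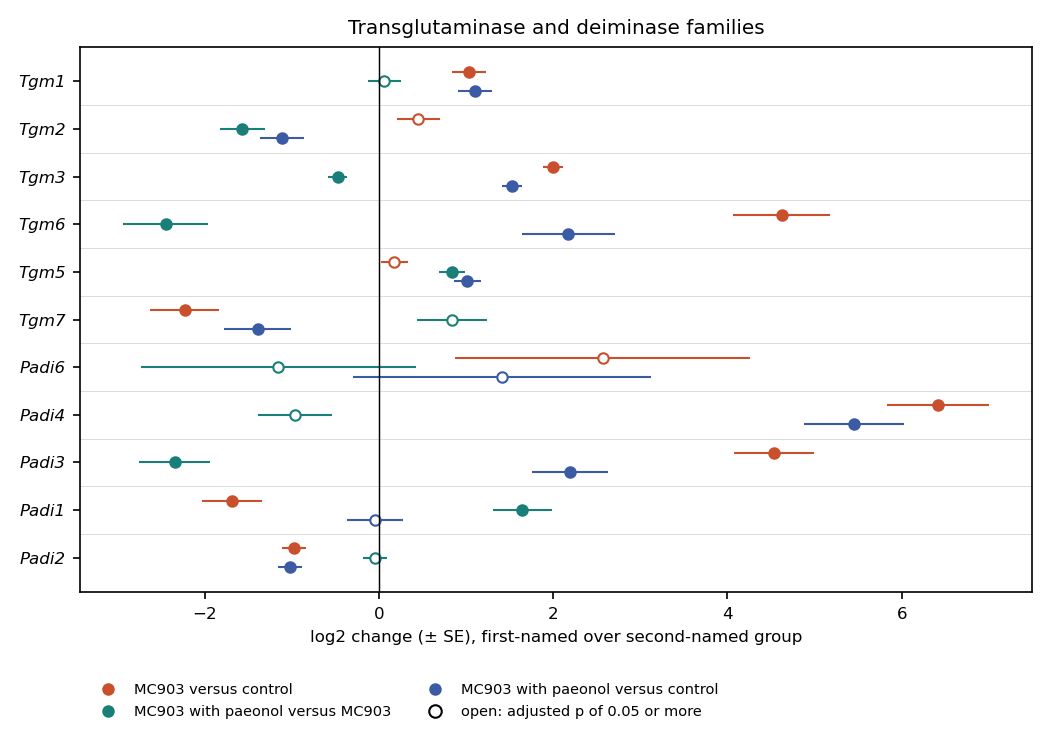
Log2 changes (first-named over second-named group, ± SE) of 11 transglutaminase and deiminase genes in the 3 comparisons, ordered by family and, for the genes of 1 chromosome, by neighbourhood; open points have an edgeR adjusted p of 0.05 or more. Padi3, Padi4 and Tgm6 share high values in MC903 against control ears (4.53, 6.41 and 4.62), and Padi1, next to Padi3, has -1.69.

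Casp14 (chr10:78711991-78718294, minus strand) encodes the caspase of cornifying keratinocytes that cuts filaggrin. It had 228, 268 and 338 CPM in the MC903 with paeonol libraries, 307, 318 and 274 CPM in the MC903 libraries and 70.7, 55.7 and 63.7 CPM in the control libraries. The MC903 with paeonol and MC903 libraries overlapped, and all lay above all control libraries. Casp14 was 4.73-fold higher in MC903 than in control ears (log2 change 2.24 ± 0.15; edgeR, adjusted p = 2.01e-06) and 4.38-fold higher in MC903 with paeonol than in control ears (2.13 ± 0.14; edgeR, adjusted p = 2.19e-05). Between MC903 with paeonol and MC903 ears its log2 change was -0.11 ± 0.14 (edgeR, adjusted p = 0.617), and its sign changed without MC903 with paeonol library 1.

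Blmh (chr11:76924809-76987379, plus strand) encodes bleomycin hydrolase, the aminopeptidase of the last step of filaggrin breakdown. It had 357, 429.8 and 479.9 CPM in the MC903 with paeonol libraries, 418, 342 and 353 CPM in the MC903 libraries and 138, 119 and 103 CPM in the control libraries. All control libraries lay below the rest, and MC903 with paeonol and MC903 libraries overlapped. Blmh was 3.09-fold higher in MC903 than in control ears (log2 change 1.63 ± 0.14; edgeR, adjusted p = 7.72e-06) and 3.52-fold higher in MC903 with paeonol than in control ears (1.82 ± 0.14; edgeR, adjusted p = 2.92e-05). Its log2 change between MC903 with paeonol and MC903 ears was 0.19 ± 0.13 (edgeR, adjusted p = 0.338).

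Asprv1 (chr6:86628164-86629710, plus strand), a gene with the retroviral-type aspartic protease that cuts the linkers of profilaggrin, went the other way. It had 1754, 1606 and 2053 CPM in the MC903 with paeonol libraries, 566, 383 and 393 CPM in the MC903 libraries and 1029, 764 and 635 CPM in the control libraries. The 3 groups did not overlap, with MC903 libraries lowest and MC903 with paeonol libraries highest. Asprv1 was 1.81-fold lower in MC903 than in control ears (log2 change -0.85 ± 0.21; edgeR, adjusted p = 0.0118). It was 4.03-fold higher in MC903 with paeonol than in MC903 ears (2.01 ± 0.22; edgeR, adjusted p = 0.000353) and 2.23-fold higher than in control ears (1.16 ± 0.22; edgeR, adjusted p = 0.00489).

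Hal, which encodes the histidase that acts on the histidine freed from filaggrin, was 4.64-fold lower in MC903 than in control ears (log2 change -2.21 ± 0.29; edgeR, adjusted p = 0.000628) and 7.64-fold higher in MC903 with paeonol than in MC903 ears (2.93 ± 0.30; edgeR, adjusted p = 0.000407). Between MC903 with paeonol and control ears the Hal log2 change was 0.72 ± 0.28 (edgeR, adjusted p = 0.0988); it was called with the replicate number as a block (0.76; edgeR, adjusted p = 0.0106), in a fit of these 2 groups alone (0.72; edgeR, adjusted p = 0.0135) and without MC903 library 1 (0.72; edgeR, adjusted p = 0.00944). Hal was chosen to be named after its values were seen.

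St14 (chr9:31089402-31131853, minus strand) had the smallest called changes of the 10. It had 87.0, 82.5 and 91.0 CPM in the MC903 with paeonol libraries, 71.1, 63.1 and 68.5 CPM in the MC903 libraries and 69.2, 65.7 and 58.5 CPM in the control libraries. MC903 and control libraries overlapped, and all MC903 with paeonol libraries lay above both. St14 was 1.29-fold higher in MC903 with paeonol than in MC903 ears (log2 change 0.36 ± 0.08; edgeR, adjusted p = 0.00408) and 1.35-fold higher than in control ears (0.43 ± 0.08; edgeR, adjusted p = 0.00154). Between MC903 and control ears its log2 change was 0.07 ± 0.08 with TMM (edgeR, adjusted p = 0.508) and -0.12 with library totals.

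Prss8 (chr7:127925716-127930104, minus strand) had 54.7, 56.3 and 75.7 CPM in the MC903 with paeonol libraries, 42.9, 35.3 and 43.6 CPM in the MC903 libraries and 41.5, 29.6 and 32.6 CPM in the control libraries. The pattern was that of St14, with MC903 and control libraries overlapping below the MC903 with paeonol libraries. Prss8 was 1.53-fold higher in MC903 with paeonol than in MC903 ears (log2 change 0.62 ± 0.16; edgeR, adjusted p = 0.0151), a call that ended without MC903 library 2 (0.53; edgeR, adjusted p = 0.0575). Against control ears it was 1.80-fold higher (0.85 ± 0.16; edgeR, adjusted p = 0.00297). Its log2 change between MC903 and control ears was 0.23 ± 0.16 (edgeR, adjusted p = 0.266). The last 122 exonic bases of Prss8 overlap Kat8 on the other strand, which had 1297 to 1777 counts per library and was called in none of the 3 comparisons.

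Spint1 and Spint2 encode the Kunitz inhibitors of matriptase and prostasin, and both were chosen to be named after their values were seen where the rule on smallest p did not take them. Spint1 had 87.4, 81.9 and 89.7 CPM in the MC903 with paeonol libraries, 63.2, 61.8 and 69.2 CPM in the MC903 libraries and 50.2, 49.5 and 38.8 CPM in the control libraries. All 3 groups were apart, in the order MC903 with paeonol, MC903 and control from high to low. Its log2 changes were 0.49 ± 0.10 in MC903 against control ears (edgeR, adjusted p = 0.00133), 0.42 ± 0.09 in MC903 with paeonol against MC903 ears (edgeR, adjusted p = 0.00640) and 0.90 ± 0.10 in MC903 with paeonol against control ears (edgeR, adjusted p = 8.25e-05). Spint2 fell by 0.22 ± 0.06 on the log2 scale in MC903 against control ears (edgeR, adjusted p = 0.00908) and was higher by 0.50 ± 0.06 in MC903 with paeonol against MC903 ears (edgeR, adjusted p = 0.000114). Its change in MC903 with paeonol against control ears was 0.28 ± 0.06 with TMM (edgeR, adjusted p = 0.00482) and 0.11 with library totals (edgeR, adjusted p = 0.168).

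Per kilobase of exon, Asprv1 was the most abundant of the 10 in each group, at 1166 ± 147 CPM per kb in MC903 with paeonol, 289 ± 66.5 in MC903 and 523 ± 129.7 in control libraries (SD, n = 3 each). In MC903 with paeonol libraries Casp14 came next at 116 ± 23.3 CPM per kb, then Blmh at 71.7 ± 10.5, Tgm3 at 65.6 ± 11.7 and Tgm1 at 54.9 ± 6.34 (SD, n = 3 each). Blmh, Tgm3 and Tgm1 followed each other within 1 SD of their neighbour. Prss8 at 33.6 ± 6.32, Tgm5 at 19.1 ± 3.37 and St14 at 11.4 ± 0.557 CPM per kb were lower, and the deiminases lowest, with Padi3 at 1.04 ± 0.608 and Padi1 at 0.347 ± 0.0462 (SD, n = 3 each). In MC903 libraries the order after Asprv1 and Casp14 (125 ± 9.68 CPM per kb) was Tgm3 at 90.9 ± 4.003, Blmh at 63.0 ± 6.94 and Tgm1 at 52.5 ± 5.03 (SD, n = 3 each). On this exon length, Tgm3 stood apart there from Blmh by more than their SDs. In control libraries Casp14 at 26.5 ± 3.14, Tgm1 at 25.5 ± 7.31, Tgm3 at 22.8 ± 1.76, Blmh at 20.4 ± 2.93 and Prss8 at 18.7 ± 3.35 CPM per kb did not differ from their neighbours in the order beyond their spread (SD, n = 3 each). These levels rest on all exonic bases of a gene. Blmh has 5891 and St14 7637, but their longest transcripts have only 3047 and 3550 bases. The places of Blmh and St14 depend on this choice of length, and the order was not recomputed with the longest transcripts.

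The proteins on which these enzymes act form a list of 20, of which 19 were tested and Sprr3 was at 0 in all libraries. In MC903 against control ears 10 of the 19 were higher and 5 lower, with a median log2 change of 0.45. With paeonol, against MC903 ears, 11 were higher and 1, Sprr1b, was lower, with a median of 0.79; the number lower was 0 without MC903 library 1 or 2 or without MC903 with paeonol library 1 or 2, and 3 without MC903 with paeonol library 3. It was 2 with DESeq2, library totals, a minimum mean CPM of 1, the replicate block or counts divided by 4. With paeonol, against control ears, 16 were higher and none lower, with a median of 2.01; with the replicate block 1, Flg2, was lower (-0.59; edgeR, adjusted p = 0.0353). The background shares and all-gene medians are those given for the enzymes.

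The 5 substrates lower in MC903 than in control ears were Flg2, Lor, Ivl, Ppl and Kprp. Lor (loricrin, the chief envelope protein) had 3340.1, 3271 and 3708 CPM in the MC903 with paeonol libraries, 718, 408 and 360.3 CPM in the MC903 libraries and 3275, 2249 and 1929 CPM in the control libraries. MC903 libraries were the lowest, and MC903 with paeonol and control libraries differed by a log2 change of 0.47 ± 0.30 (edgeR, adjusted p = 0.293). Lor was 5.01-fold lower in MC903 than in control ears (-2.33 ± 0.31; edgeR, adjusted p = 0.000680) and 6.94-fold higher in MC903 with paeonol than in MC903 ears (2.79 ± 0.32; edgeR, adjusted p = 0.000658). Flg2 (filaggrin 2) changed by -4.22 ± 0.44 in MC903 against control ears (edgeR, adjusted p = 0.000244) and by 3.57 ± 0.43 in MC903 with paeonol against MC903 ears (edgeR, adjusted p = 0.00105). Ivl (involucrin) changed by -0.85 ± 0.21, 2.11 ± 0.21 and 1.26 ± 0.21 in MC903 against control, MC903 with paeonol against MC903 and MC903 with paeonol against control ears (edgeR, adjusted p = 0.00946, 0.000153 and 0.00211). The changes of Asprv1 in the same order were -0.85, 2.01 and 1.16.

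Flg (filaggrin), the substrate of the deiminases and of Asprv1 and Casp14, had 1795, 1687 and 2014 CPM in the MC903 with paeonol libraries, 912, 632 and 425 CPM in the MC903 libraries and 593, 398 and 474 CPM in the control libraries. MC903 and control libraries overlapped, and MC903 with paeonol libraries were above both. Flg was 2.79-fold higher in MC903 with paeonol than in MC903 ears (log2 change 1.48 ± 0.28; edgeR, adjusted p = 0.00618) and 3.75-fold higher than in control ears (1.91 ± 0.28; edgeR, adjusted p = 0.00213). Between MC903 and control ears the change was 0.43 ± 0.27 (edgeR, adjusted p = 0.249), and it was called without MC903 library 3 (0.66; edgeR, adjusted p = 0.0277). Hrnr (hornerin) changed by 2.17 ± 0.31 in MC903 with paeonol against MC903 ears (edgeR, adjusted p = 0.00208) and by 1.94 ± 0.31 in MC903 with paeonol against control ears (edgeR, adjusted p = 0.00343).

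Other substrates were far higher in MC903 than in control ears. Rptn (repetin) had 843, 1230.2 and 2367 CPM in the MC903 with paeonol libraries, 1376, 1181 and 1300.4 CPM in the MC903 libraries and 11.4, 13.6 and 12.5 CPM in the control libraries, and its log2 change in MC903 against control ears was 6.69 ± 0.45 (edgeR, adjusted p = 2.44e-05). Sprr1b, a small proline-rich cross-linking protein, changed by 5.99 ± 0.43 (edgeR, adjusted p = 3.40e-05), and Krt1, the keratin of the suprabasal layers, by 2.03 ± 0.22 (edgeR, adjusted p = 0.000119). Tchh (trichohyalin), a substrate of Padi3 and Tgm3 in the inner root sheath of hair, changed by 5.97 ± 0.55 (edgeR, adjusted p = 0.000145) and, in MC903 with paeonol against control ears, by 6.08 ± 0.55 (edgeR, adjusted p = 0.000412; 5.48 without MC903 with paeonol library 3). Of the 8 inner root sheath markers Tchh was the only one called in these comparisons; Krt71 stood at 0.530, 11.4 and 2.36 CPM in MC903 with paeonol, 1.04, 0.869 and 0.490 CPM in MC903 and 1.73, 10.2 and 0.625 CPM in control libraries. Flg, Flg2, Hrnr, Lor, Ivl and Tchh were named after their values were seen where the rule on smallest p did not take them.

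**Figure D5:**
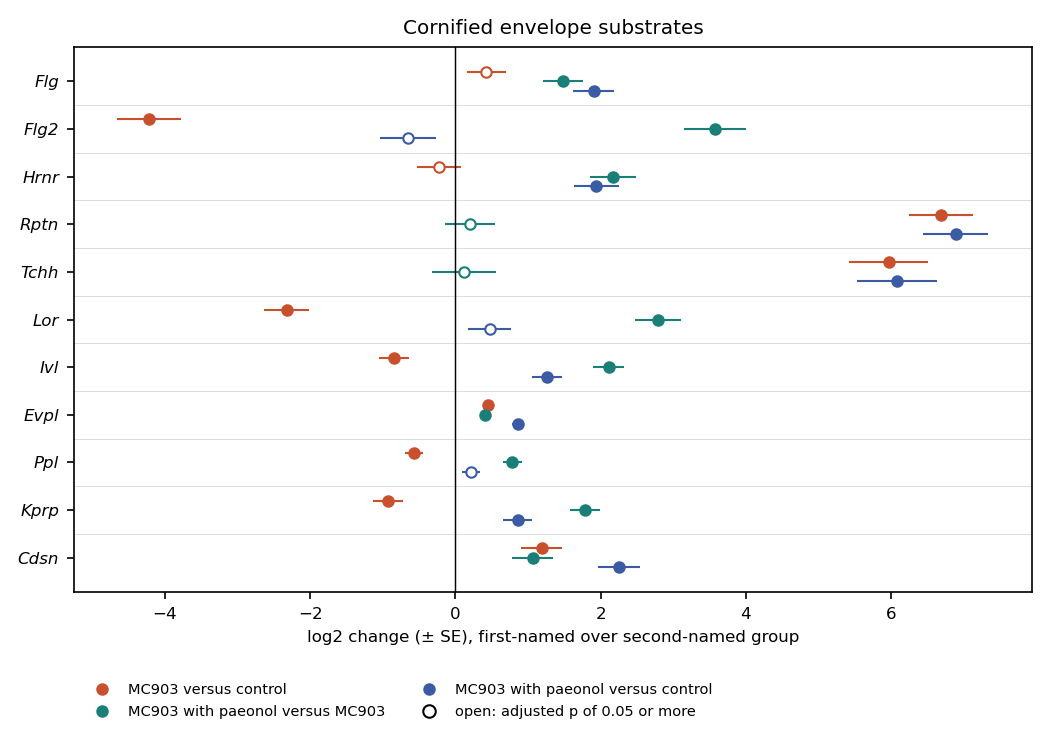
Log2 changes (first-named over second-named group, ± SE) of 11 cornified envelope substrates in the 3 comparisons; open points have an edgeR adjusted p of 0.05 or more. Flg2, Lor and Ivl lie on the left in MC903 against control ears (-4.22, -2.33 and -0.85) and on the right in MC903 with paeonol against MC903 ears (3.57, 2.79 and 2.11), while Rptn and Tchh are near 0 in the second.

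The 7 suprabasal keratinocyte markers summed to 28972 to 33117 CPM in MC903 with paeonol, 7549 to 15757 CPM in MC903 and 7065 to 10014 CPM in control libraries, and none was at 0 in all libraries. Between MC903 with paeonol and MC903 ears 5 of the 7 (Krt10, Dsg1a, Krtdap, Sbsn and Calm4) were higher and none lower, beside 15.3% and 14.3% of all genes. Against control ears all 7 were higher, beside 16.3% of all genes. In MC903 against control ears Krt1 and Dsc1 were higher, Sbsn lower and the other 4 not called, beside 23.0% of all genes higher and 23.8% lower. The part of the 7 markers in the enzyme changes was not tested. With all libraries scaled to the 9 basal keratinocyte markers, each of the 30 enzyme results kept its call. Basal markers do not measure the suprabasal layers, so this scaling does not adjust for those layers. The 6 stress and proliferation markers, among them Krt6a and Krt16, summed to 5331 to 9452 CPM in MC903 with paeonol, 20613 to 22318 CPM in MC903 and 804 to 1478 CPM in control libraries. The keratins carried this sum: between MC903 with paeonol and MC903 ears Krt6a, Krt6b and Krt17 were lower and Krt16 was not called. The proliferation marker Top2a was higher there and Mki67, at 263 ± 28.3 CPM in MC903 with paeonol and 244 ± 19.5 CPM in MC903 libraries (SD, n = 3 each), was not called. The part of these 6 markers was not tested either.

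The list of 21 other epidermal proteases and inhibitors had 12 higher and 5 lower in MC903 against control ears, beside 23.0% of all genes higher and 23.8% lower. There Klk8 and Klk11, kallikrein-type proteases of the epidermis, changed by 2.71 ± 0.10 (edgeR, adjusted p = 6.63e-08) and 1.31 ± 0.11 (edgeR, adjusted p = 3.90e-06), and Pcsk6, a proprotein convertase, fell by 1.04 ± 0.07 (edgeR, adjusted p = 1.16e-06). The 5 lower were Pcsk6, Capn1, Spint2, F2rl1 and Hal. With paeonol, against MC903 ears, 10 were higher and 4 (Klk8, Klk10, Ctsc and Lgmn) lower, beside 15.3% and 14.3% of all genes, with Klk8 at -0.93 ± 0.10 (edgeR, adjusted p = 4.20e-05), Pcsk6 at 0.86 ± 0.07 (edgeR, adjusted p = 1.45e-05) and F2rl1, the protease-activated receptor on which matriptase acts, at 1.23 ± 0.14 (edgeR, adjusted p = 6.57e-05). Against control ears, 12 were higher with paeonol and none lower (1 with library totals), beside 16.3% and 14.5% of all genes. There Klk8 changed by 1.78 ± 0.10 (edgeR, adjusted p = 4.41e-06) and Klk11 by 1.01 ± 0.11 (edgeR, adjusted p = 0.000105).

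The corneocyte lipid envelope list covers 14 genes for the ceramides and other lipids laid on the envelope. In MC903 against control ears 5, Alox12b and Ugcg among them, were higher, or 3 with library totals, and 2, Acer1 and Smpd1, lower, beside 23.0% and 23.8% of all genes. Ugcg, the glucosylceramide synthase, changed by 1.299 ± 0.11 (edgeR, adjusted p = 3.68e-06) and the ceramidase Acer1 by -1.19 ± 0.15 (edgeR, adjusted p = 0.000181). With paeonol, against MC903 ears, 9 were higher and Ugcg was lower, beside 15.3% and 14.3% of all genes. The Ugcg call was not made in a fit of these 2 groups alone, with scaling to the basal keratinocyte markers, or when any 1 control or MC903 library, or MC903 with paeonol library 1 or 2, was left out. Acer1 changed by 1.34 ± 0.15 (edgeR, adjusted p = 0.000224), the sphingomyelinase Smpd1 by 1.33 ± 0.15 (edgeR, adjusted p = 0.000226) and Abhd5, the cofactor of Pnpla1, by 0.49 ± 0.07 (edgeR, adjusted p = 0.000376). Against control ears 12 of 14 were higher with paeonol, Abhd5 by 0.75 ± 0.07 (edgeR, adjusted p = 4.10e-05), Ugcg by 0.98 ± 0.11 (edgeR, adjusted p = 0.000109) and the fatty acid elongase Elovl1 by 0.84 ± 0.12 (edgeR, adjusted p = 0.000478), and none was lower, beside 16.3% and 14.5% of all genes.

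Among 20 regulators of epidermal differentiation, 9 were higher and Gata3 and Cebpa lower in MC903 against control ears; with library totals 5 were higher and 6 lower. Of all genes 23.0% were higher and 23.8% lower. Gata3 fell by 1.49 ± 0.09 (edgeR, adjusted p = 4.91e-07), while Zfp750 changed by 1.19 ± 0.09 (edgeR, adjusted p = 1.66e-06) and Cebpb by 1.299 ± 0.10 (edgeR, adjusted p = 2.07e-06). In MC903 with paeonol against MC903 ears 9 were higher and Cebpb, Elf3 and Vdr lower, beside 15.3% and 14.3% of all genes. Gata3 changed by 1.502 ± 0.09 (edgeR, adjusted p = 1.91e-06), Cebpa by 1.03 ± 0.09 (edgeR, adjusted p = 1.37e-05) and Hopx by 0.85 ± 0.08 (edgeR, adjusted p = 2.25e-05). With paeonol, against control ears, 16 were higher and none lower (1 with library totals), beside 16.3% and 14.5% of all genes. The smallest p-values were those of Zfp750 (1.21 ± 0.09; edgeR, adjusted p = 1.53e-05), Ovol1 (1.25 ± 0.10; edgeR, adjusted p = 2.12e-05) and Hopx (0.84 ± 0.08; edgeR, adjusted p = 4.01e-05), and the largest change was that of Elf3 (1.75 ± 0.27; edgeR, adjusted p = 0.00112). The regulators named here encode transcription factors of the epidermis, apart from Hopx, whose homeodomain does not bind DNA.

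For each enzyme the most similar genes were found by Pearson's r of log2 CPM over the 9 libraries among 12344 or 12345 other genes whose log2 CPM averaged at least 2; the 9 points share the group differences, so these values only describe. The gene most like Tgm3 was Sprr1b (r = 0.998), followed by Sult2b1 and Klk13. For Asprv1 it was Ivl (r = 0.995), then Lypd5 and Cptp. Casp14 was most like Tuba4a (r = 0.997), Serbp1 and Traf6, and Blmh most like Pls3 (r = 0.995), Zdhhc5 and Ammecr1. Minpp1 (r = 0.981) and again Ammecr1 were among the 3 genes most like Tgm1, while Tgm5 was most like Gphn (r = 0.988), Abcg4 and Mvk. For Padi3 the nearest genes were Eif2b3 (r = 0.995), Acot11 and Vstm5, and for Padi1 Gpld1 (r = 0.992), Cfap57 and Etv3. St14 was nearest to Bspry (r = 0.985), Nipal1 and Acpp, and Prss8 to Dusp14 (r = 0.979), Fam110a and Rnf11.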

How the data were processed

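Messenger RNA of 9 ear libraries was grouped by the treatment label, with replicate numbers from the titles; 3 libraries form each group. Per the labels' protocols, RNA was extracted with Trizol, purified on oligo(dT) beads and copied with dUTP in the second strand. The pipeline, per the submitters' processing notes, included StringTie 1.3.4d, HISAT2 2.0.4, cutadapt and the build GRCm38; the sources used here give neither their roles nor the annotation and strand setting. The values deposited by the authors are whole numbers, read as estimated counts with no scaling across libraries. Multiples of 4 are too frequent among low values (a 4 occurs 1.90 to 2.23 times as often as the mean of 3 and 5); how they arose is not stated. All value columns were used.

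Symbols and coordinates came from GENCODE M21, matching 55141 of 55401 features. Under R 4.3.3, with the data.table package (version 1.17.8), filterByExpr (minimum count 10, minimum total 15) kept 21925 genes, with 0.0398% of the counts outside them. edgeR 4.0.16 fitted 1 coefficient per group to all 9 libraries with TMM factors of 0.942 to 1.09 and a robust quasi-likelihood fit; adjusted p-values are Benjamini-Hochberg over all genes tested. The SE was derived from the change and its F value. Shares within a family were compared by exact permutation tests.

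The members and gene lists were chosen with earlier results of these data known. All 10 members are named; from each list the 3 genes with the smallest p in each comparison are named with values, and for each member the 3 genes most alike over the libraries, except for items that are not reported here. Further named genes were chosen after their values were seen. The alternatives were DESeq2 1.42.0, edgeR with DESeq2 size factors, library totals, scaling to basal keratinocyte markers, a replicate block, no filter, a minimum mean CPM of 1, 2-group fits, counts divided by 4, longest transcript lengths, and leaving out each library. The scripts were tested on simulated counts for MC903 against control. Called in the right direction were 43.3% of 67 genes changed 1.5-fold, 61.2% of 67 changed 2-fold and 89.4% of 66 changed 4-fold. The changed genes were drawn from those above a floor on the mean count, and 20882 genes were left unchanged. In the real comparison 46.8% of genes were called, so these rates need not hold there. A gene that is not called may therefore still have changed. Replicates differed by more than counting noise (chi-square per degree of freedom 6.51 to 14.4 on counts divided by 4).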

Additional observations from a re-analysis of the deposited data

How the results depend on the processing

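The 30 enzyme results were recomputed under 18 alternatives each, 540 in all, of which 532 kept direction and side of the threshold. None of the 23 called results changed sign, and 1 lost its call, Prss8 in MC903 with paeonol against MC903 ears without MC903 library 2 (0.53; edgeR, adjusted p = 0.0575; 0.45 to 0.71 over the libraries left out). The sign changes were in results that were not called: with library totals, Tgm5 (-0.0121) and St14 (-0.12) in MC903 against control ears. Leaving out libraries gave -0.0292 to 0.147 for Tgm1 and -0.274 to 0.0202 for Casp14 in MC903 with paeonol against MC903 ears, and -0.137 to 0.0266 for Padi1 in MC903 with paeonol against control ears. The share of Tgm1 in its family in MC903 with paeonol minus control ears was -4.30 percentage points and ranged over -9.07 to 0.118 (0.118 without control library 1). With library totals, all-gene calls in MC903 with paeonol against control ears were 2155 higher and 5354 lower. For Tgm5, St14 and these counts the scaling alone was changed; for the others the cause was not tested.

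Replicate numbers did not pair the libraries: deviations from the group means correlated at -0.0113 to 0.0400 for the 9 same-numbered pairs and at -0.0322 to 0.0255 for the 18 others. With the number as a block, the calls were 4975 higher and 5129 lower in MC903 against control ears, 3268 and 3080 in MC903 with paeonol against MC903 ears, and 3537 and 3136 in MC903 with paeonol against control ears, and no enzyme call changed. A set of 73 results on named list genes was run under 1314 alternatives, of which 1305 kept their call, 2 lost and 7 gained one, and none changed sign. The set does not hold every named result. Among those outside it are Sprr1b and Ugcg in MC903 with paeonol against MC903 ears, whose lower calls were lost under the alternatives given with their lists. Depth limits Padi1 and Padi3 most. Padi1 had 16 to 87 counts per library. Padi3 had 48, 62 and 33 counts in the control libraries, fewer than Padi1 there, and its changes against control ears rest on these counts.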
